A study of Mus musculus with 21 samples.

Results

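Neurotransmitter release was followed through 39 genes that encode its machinery. They were taken by gene symbol from a fixed list, and all 39 were present among the 21872 symbols of both deposited count tables. The list holds 7 vesicle proteins, 8 calcium sensors and relatives, 10 SNARE proteins (the proteins that fuse vesicle and plasma membrane) with their regulators, 10 genes of the active zone and the Rab3 GTPases, and 4 endocytosis genes. RNA came from mouse brain. At embryonic day 18.5 (E18.5) there were 6 libraries from controls given water and 6 after trientine (TETA), a copper chelator, a condition that the labels call copper-deficient. At 7 weeks after birth there were 5 control and 4 TETA libraries. No strain, dose, route or timing of TETA is given in the labels. One extraction protocol is repeated for every library. It names the prefrontal cortex, male sex and an age of 7 weeks, so region and sex at E18.5 are not known. Nothing states that libraries came from separate animals, and p-values measure the spread between these libraries, which may be technical.

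Synaptic vesicles store transmitter at the nerve terminal, dock at the active zone, are primed by Munc13 and RIM proteins, and fuse when calcium binds synaptotagmin. Fusion is driven by the zippering of VAMP on the vesicle with SNAP-25 and syntaxin on the plasma membrane. NSF with its SNAP adaptors then takes the spent complexes apart, and dynamin, amphiphysin and synaptojanin recover the membrane. Most of these proteins exist as several paralogs that differ between neuron types and between immature and mature synapses. In bulk tissue, fewer cells of a type and less RNA per cell cannot be told apart.

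Promoter windows from RefSeq (GRCm38.p6) are shown for the member with the largest difference between ages (Cplx3) and for 3 of the members that differed after TETA (Unc13b, Unc13c and Sv2c). Each is the 250 bases before the start in RefSeq, written 5′ to 3′ on the gene's strand, and capitals mark a GC box (GGGCGG on either strand).
Cplx3, chr9:57606282-57606531, minus strand: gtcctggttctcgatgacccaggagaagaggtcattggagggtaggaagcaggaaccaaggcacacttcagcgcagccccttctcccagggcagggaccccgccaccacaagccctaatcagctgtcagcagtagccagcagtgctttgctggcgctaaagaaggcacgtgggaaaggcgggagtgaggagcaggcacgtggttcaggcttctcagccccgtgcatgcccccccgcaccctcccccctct
Unc13b, chr4:43058703-43058952, plus strand: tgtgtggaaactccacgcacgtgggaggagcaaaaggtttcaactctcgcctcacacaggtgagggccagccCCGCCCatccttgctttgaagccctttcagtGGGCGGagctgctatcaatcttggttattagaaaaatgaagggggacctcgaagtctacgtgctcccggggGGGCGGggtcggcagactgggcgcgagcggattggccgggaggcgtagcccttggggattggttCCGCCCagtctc
Unc13c, chr9:73969038-73969287, minus strand: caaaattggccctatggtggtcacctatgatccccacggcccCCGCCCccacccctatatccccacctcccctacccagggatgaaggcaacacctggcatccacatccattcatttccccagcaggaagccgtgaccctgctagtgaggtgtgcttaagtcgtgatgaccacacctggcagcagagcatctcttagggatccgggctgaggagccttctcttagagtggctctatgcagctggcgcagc
Sv2c, chr13:96132578-96132827, minus strand: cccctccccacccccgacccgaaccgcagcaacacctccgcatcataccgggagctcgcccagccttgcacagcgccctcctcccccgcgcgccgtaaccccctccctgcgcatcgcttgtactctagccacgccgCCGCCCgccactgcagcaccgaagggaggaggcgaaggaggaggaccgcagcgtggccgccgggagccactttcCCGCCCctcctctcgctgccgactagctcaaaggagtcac

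The Unc13b window holds 4 GC boxes, that of Sv2c holds 2, that of Unc13c holds 1 and that of Cplx3 holds none. RefSeq windows were matched for 30 of the 39 members, which have 38 windows. For 31 of these, bases just after the RefSeq start were found in a GENCODE M21 transcript of the gene. For Unc13c they were not, and its window lies upstream of the GENCODE gene. A GC box was in 22 of these 38 windows (57.9%) and in 32.7% of all 32851 windows of the same length, both strands searched. GC content was averaged over the windows of each matched member, and the median of the 30 members was 61.2%. The median over all windows, each taken singly, was 52.4%, so the 2 medians are not of the same measure. The TATA box TATAAA was in 3 member windows (7.89%, against 12.4% of all windows), which belong to Rab3b and Sv2b. The cyclic AMP response element TGACGTCA was in 1 (Syn1), an Egr site (GCGGGGGCG) in 2 (Syn2 and Stxbp5) and the NRF1 consensus site in 2 (Bsn and Stxbp5), the shares of all windows being 1.55%, 2.57% and 0.782%. The left part of the RE1 element, TTCAGCACC, which the neuronal gene repressor REST binds, was in the window of Syn1 and in 0.301% of all windows. These are matches of letters and were not tested as binding sites.

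The E18.5 libraries held 14678265 to 24308555 counts and the 7-week libraries 17838051 to 24035857. Marker genes were read to check the tissue. Summed markers of excitatory cortical neurons (8 genes such as Slc17a7 and Neurod6) lay between 1630 and 1966 CPM (counts relative to library size) at E18.5 and between 6523 and 7460 CPM at 7 weeks. Between control ages 3 of these 8 were higher and 4 lower, with a median log2 difference of -0.24. The sum was carried by Camk2a (means 122.4 and 4545 CPM) and Slc17a7 (82.1 and 1763 CPM), whereas Neurod6 went from 527.4 to 105.4 CPM. The 9 oligodendrocyte markers summed to at most 167.3 CPM at E18.5 and to at least 6294 CPM at 7 weeks, and the 9 progenitor markers to at least 556.3 CPM and at most 114.7 CPM. No marker gene of these 3 lists was at 0 throughout a group. All CPM values here are scaled by TMM, a library size correction, over all 21 libraries together.

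The release machinery was far more abundant at 7 weeks than at E18.5. The 39 genes together took 0.683% to 0.729% of all counts in the E18.5 libraries and 2.32% to 2.38% in the 7-week libraries. Among controls, 35 of the 39 were higher and 3 lower at 7 weeks in edgeR's quasi-likelihood test, at a threshold of 0.05 for the p adjusted over all genes. Of all 14375 genes tested, 89.5% passed, 44% higher and 45.5% lower. An unadjusted p under 0.05 was reached by 38 members (97.4%) and 89.8% of all genes. A called rise by more than 1 on the log2 scale (a doubling) was found for 29 members, against 22.8% of all genes, and a called fall by more than 1 for 3 members, against 17.8% of all genes. The log2 difference was above 0 for 36 members, against 49.2% of all genes, and the median was 1.49, against -0.02 for all genes. Control libraries of the ages did not overlap for 38 of 39 members and for 80.2% of all genes. Region and sex at E18.5 are not given, so a difference in either cannot be told apart from age. Over the same control libraries the summed level of 13 pan-neuronal markers fell from 10380–10940 to 6396–6657 CPM (5 of 13 higher, 7 lower). The largest falls in mean level were those of Tubb3 (2484 to 417.8 CPM) and Mapt (2362 to 627.6 CPM). The 5 higher were Rbfox3, Nefl, Nefm, Nefh and Eno2, the last going from 86.8 to 1031 CPM. Astrocyte markers went from 517.4–597.4 to 5929–6826 CPM (8 of 8 higher). The part of either list in the members' differences was not tested.

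**Figure D1:**
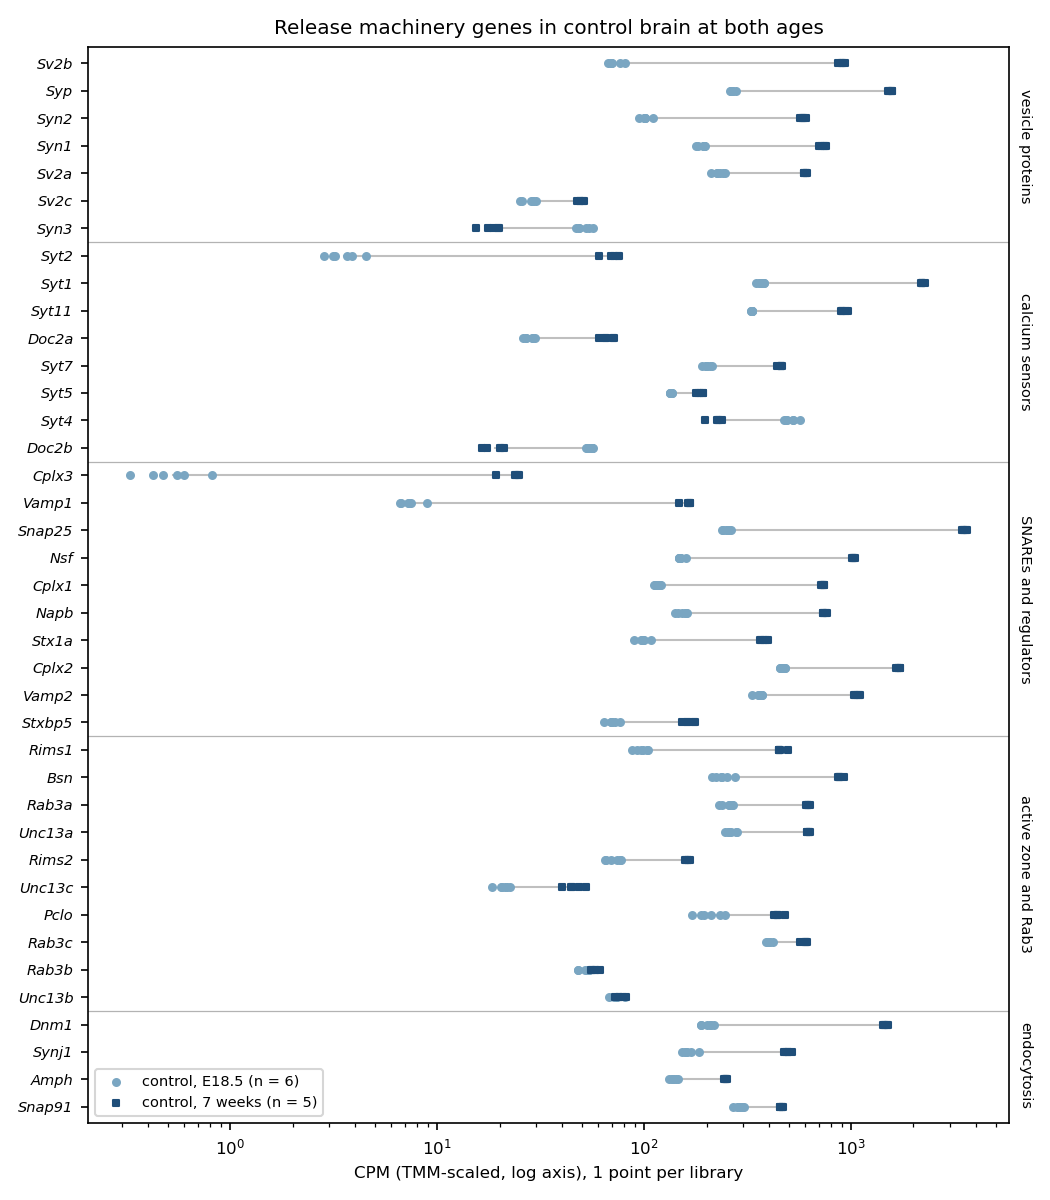
Level of each of the 39 genes in each control library (x axis, TMM-scaled CPM on a log axis), with circles for the 6 libraries at E18.5 and squares for the 5 at 7 weeks, genes grouped by role. Squares lie to the right of circles for 35 genes, to the left for Syn3, Syt4 and Doc2b, and among them for Unc13b.

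SNARE proteins and their regulators all rose, 10 of 10, with a median log2 difference of 2.47. Snap25, a plasma membrane SNARE on chromosome 2 (GRCm38 136713453 to 136782428, plus strand), had a lowest, median and highest level of 236.3, 250.5 and 263.7 CPM in the E18.5 controls. In the 7-week controls it stood at 3516, 3577, 3630, 3467 and 3435 CPM. Every 7-week library lay far above every E18.5 library, the log2 difference being 3.82 (SE 0.038, adjusted p = 1.35e-28). Vamp1, the vesicle SNARE of many fast-firing neurons (chromosome 6, 125215551 to 125245964, plus strand), had 6.58, 7.23 and 8.92 CPM at E18.5. At 7 weeks it had 147.3, 165.9, 164.4, 162.8 and 166.2 CPM, a log2 difference of 4.47 (SE 0.059, adjusted p = 1.56e-26). Its paralog Vamp2, the main vesicle SNARE of forebrain, went from 359.1 ± 14.4 to 1066 ± 30.3 CPM (SD, n = 6 and 5), a log2 difference of 1.58.

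Complexins clamp and then promote the assembled SNARE complex. Cplx3 (chromosome 9, 57599992 to 57606281, minus strand) had the largest difference of the 39, with 0.327, 0.513 and 0.817 CPM as lowest, median and highest level at E18.5. These levels rest on 5 to 13 counts per control library. At 7 weeks the gene had 19.2, 24.6, 24.0, 23.8 and 24.8 CPM, with no overlap, and the log2 difference was 5.46 (SE 0.13, adjusted p = 6.22e-22). Cplx1 rose by 2.66 and Cplx2 by 1.87 on the log2 scale. Among the other members of this class, Nsf, the ATPase that separates used SNARE complexes, rose by 2.78, and Napb, its adaptor beta-SNAP, by 2.29. Stx1a (syntaxin-1A) rose by 1.95 and Stxbp5 (tomosyn, which holds syntaxin in an inactive complex) by 1.24.

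Vesicle proteins divided, with 6 of 7 higher and 1 lower. Sv2b, a vesicle glycoprotein (chromosome 7, 75114894 to 75309262, minus strand), had 66.6, 69.4 and 80.7 CPM as lowest, median and highest level at E18.5. It had 895.4, 914.4, 939.0, 906.3 and 860.7 CPM at 7 weeks, so that the groups lay far apart, with a log2 difference of 3.66 (SE 0.046, adjusted p = 7.74e-27). Its paralogs Sv2a and Sv2c rose by 1.39 and 0.83. Synaptophysin (Syp), an abundant membrane protein of the vesicle, rose by 2.55, as did Syn2 by 2.54 and Syn1 by 1.96, the synapsins that tether vesicles to each other. Syn3, the synapsin of immature neurons (chromosome 10, 86055125 to 86498896, minus strand), went the other way. It had 46.8, 50.3 and 56.6 CPM at E18.5 and 17.7, 18.6, 15.4, 19.8 and 19.9 CPM at 7 weeks. No library overlapped, and the log2 difference was -1.47 (SE 0.065, adjusted p = 2.37e-16).

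Calcium sensors also divided, with 6 of 8 higher and 2 lower. Syt2, a fast calcium sensor, had 2.82, 3.44 and 4.50 CPM as lowest, median and highest level at E18.5 and 60.7, 71.5, 74.5, 75.2 and 69.0 CPM at 7 weeks. The groups were well separated, with a log2 difference of 4.30 (SE 0.083, adjusted p = 2.19e-23). Syt1, the main fast sensor of forebrain synapses, rose by 2.60, Syt11, which lacks calcium binding, by 1.49, Doc2a by 1.26, Syt7, a slow sensor, by 1.18 and Syt5 by 0.48. Syt4, a synaptotagmin that binds calcium poorly, had 475.9, 507.9 and 567.5 CPM at E18.5. At 7 weeks it had 230.7, 226.7, 237.5, 224.7 and 195.7 CPM, all below the lowest E18.5 library, with a log2 difference of -1.19 (SE 0.050, adjusted p = 8.29e-17). Doc2b, a sensor of high calcium affinity linked to spontaneous release, had 52.3, 54.9 and 56.3 CPM at E18.5 and 20.01, 17.5, 21.1, 20.2 and 16.5 CPM at 7 weeks. Its log2 difference of -1.52 (SE 0.058, adjusted p = 1.52e-17) was the lowest of the 39.

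Active zone genes rose in 9 of 10 cases, with a median log2 difference of 1.17. The RIM scaffolds rose by 2.24 (Rims1) and 1.19 (Rims2), the cytomatrix giants Bassoon (Bsn) and Piccolo (Pclo) by 1.89 and 1.11, and the Munc13 priming factors Unc13a and Unc13c by 1.25 and 1.15. The Rab3 GTPases, which bind vesicles and RIM, rose by 1.296 (Rab3a), 0.59 (Rab3c) and 0.17 (Rab3b). Rab3b had 47.7, 52.2 and 54.2 CPM at E18.5 and 56.1, 61.3, 55.1, 57.5 and 58.2 CPM at 7 weeks. The difference, although called (SE 0.046, adjusted p = 0.00142), was 0.02 with an adjusted p of 0.711 when library totals replaced TMM. Unc13b (Munc13-2) was the 1 member not called. It had 67.3, 73.0 and 80.8 CPM at E18.5 and 75.3, 72.6, 75.9, 78.8 and 81.3 CPM at 7 weeks. These overlapped, with a log2 difference of 0.07 (95% interval -0.02 to 0.17, adjusted p = 0.128). That value became -0.08 with library totals and was called at 0.10 by DESeq2, at 0.12 among genes with a mean of at least 50 counts, and at 0.10 without E18.5 control replicate 1-2. Library totals moved the median of all genes from -0.02 to -0.17, and 35 of 39 members were then above 0.

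All 4 endocytosis genes rose. Dnm1 (dynamin-1, which pinches off the recovered vesicle) rose by 2.86 on the log2 scale, Synj1 (synaptojanin-1, a lipid phosphatase that sheds the clathrin coat) by 1.60, Amph (amphiphysin) by 0.84 and Snap91 (AP180, a clathrin assembly protein) by 0.68. Levels of different genes are set side by side only per kb of merged exons (GENCODE M21). In E18.5 controls these ran from 0.1798 CPM per kb for Cplx3 to 131.4 for Syt4, and in 7-week controls from 1.49 for Syn3 to 519.1 for Snap25.

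The share of paralogs within several families differed between the ages, and the most abundant paralog per kb changed in the Doc2 pair and among the synaptotagmins, as did the order of Unc13b and Unc13c below Unc13a. The following shares of a family's summed CPM per kb in control libraries are descriptions, given as mean ± SD (n = 6 at E18.5 and 5 at 7 weeks). Doc2b held 55.7% ± 1.13 of the Doc2 pair at E18.5 and 15.5% ± 1.15 at 7 weeks, with Doc2a making up the rest. Among the SV2 glycoproteins, Sv2b went from 14.1% ± 1.45 to 44.5% ± 0.504 and Sv2a from 81.2% ± 1.52 to 53.4% ± 0.484. Of the 6 synaptotagmins listed, Syt4 held the most at E18.5 (40.7% ± 1.61) and Syt1 the most at 7 weeks (40.9% ± 0.458). Syt4 was then at 8.85% ± 0.527, and Syt1 had been at 13.6% ± 0.584. Vamp1 rose from 0.764% ± 0.117 to 5.37% ± 0.356 of the VAMP pair, so Vamp2 remained the larger by far at each age. Cplx1 went from 35.9% ± 0.862 to 48.8% ± 0.606 of the complexins, level with Cplx2 at 50.1% ± 0.681. Syn3 fell from 5.47% ± 0.305 to 0.484% ± 0.0425 of the synapsins and Unc13b from 12.2% ± 0.732 to 5.84% ± 0.229 of the Munc13 genes, whereas Unc13c held 8.98% ± 0.718 and 9.03% ± 0.854. None of these shares except that of Unc13c overlapped between control libraries of the ages.

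**Figure D2:**
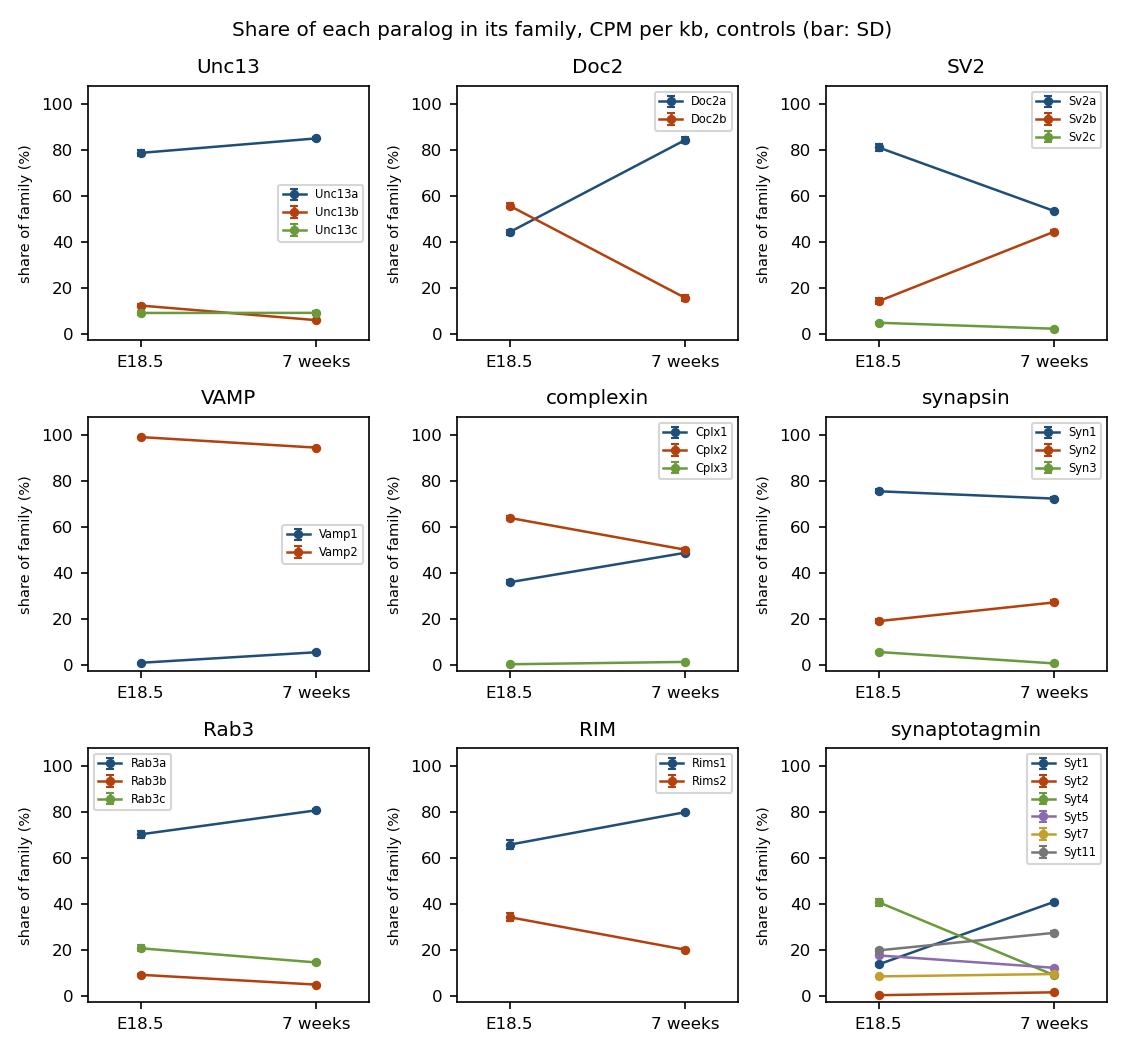
Share of each paralog in its family (y axis, percent of the family's summed CPM per kb) in controls at E18.5 (n = 6) and 7 weeks (n = 5), points showing means and bars SD. Lines cross for Doc2 (Doc2b from 55.7% to 15.5%) and for Syt1 and Syt4, and draw together for the complexins and for Sv2a and Sv2b.

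At E18.5 no member passed the test of TETA against control. In edgeR's quasi-likelihood test 0 of the 39 members and 0 of all 13794 genes (0%) passed an adjusted p of 0.05, with no gene higher (0%) or lower (0%). DESeq2 and limma voom with library weights also called 0 members. An unadjusted p under 0.05 was reached by 1 member (2.56%) and by 4.78% of all genes. Summed endothelial markers, at 138.3 to 156.5 CPM in control and 157.6 to 168.9 CPM after TETA, did not overlap at this age (3 of 6 with an unadjusted p under 0.05, 0 called by edgeR, and Kdr called higher by both DESeq2 and limma voom with library weights), and their part in the members' values was not tested. Groups overlapped for every member, and failed to overlap for 0.319% of all genes. The log2 fold change was above 0 for 29 of 39 members, against 48.2% of all genes, with a median of 0.02. For 37 members the 95% interval lay within 0.25 of 0. The exceptions were Cplx3 (-0.38 to 0.93) and Syt2 (-0.18 to 0.35), the least abundant members per kb together with Vamp1.

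The 6 members with the smallest p at E18.5 differed by 0.10 or less on the log2 scale. Nsf had 146.5, 148.2 and 158.9 CPM as lowest, median and highest control value and 149.2, 158.7 and 174.0 CPM after TETA, overlapping, with a log2 fold change of 0.08 (SE 0.039, adjusted p = 0.996). Rims1 had 87.2, 97.1 and 104.8 CPM in control and 93.6, 104.0 and 113.2 CPM after TETA (log2 fold change 0.10, SE 0.047). Syp had 258.8, 265.0 and 278.9 CPM in control and 265.7, 278.3 and 292.9 CPM after TETA (0.07, SE 0.035). In these 3 genes the groups overlapped, and the highest TETA value was above the highest control. Napb had 140.7, 154.3 and 161.0 CPM in control and 142.2, 145.7 and 150.5 CPM after TETA (-0.07, SE 0.037), the TETA values lying inside the control range. Unc13b had 67.3, 73.0 and 80.8 CPM in control and 70.4, 77.2 and 85.7 CPM after TETA (0.08, SE 0.047). Sv2a had 209.1, 228.7 and 244.4 CPM in control and 225.4, 240.7 and 260.9 CPM after TETA (0.07, SE 0.044). Each of these also had an adjusted p of 0.996. Among 71 other genes of vesicle release tested at this age, 0 were called by edgeR or DESeq2, and in edgeR 3 had an unadjusted p under 0.05. Among these were Ap2b1, a subunit of the clathrin adaptor AP-2 (log2 fold change 0.10), and Rab3il1, an activator of Rab3 (0.14).

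At 7 weeks TETA and control differed in 5 of the 39 members in edgeR's quasi-likelihood test, 2 higher and 3 lower. Over all 14240 genes the shares were 9.96% called, 5.67% higher and 4.28% lower, so the members' 12.8% (5.13% higher and 7.69% lower) was near that of all genes. Of the 1418 genes called, 57.0% were higher, and 67.6% of 1483 with library totals in place of TMM, which left the members at 2 higher and 3 lower. An unadjusted p under 0.05 was reached by 11 members (28.2%) and 24% of all genes. The groups did not overlap for 7 members (17.9%), namely Syp, Sv2a, Sv2c, Doc2b, Rims1, Unc13b and Unc13c, against 11.2% of all genes. A log2 fold change above 0 was found for 15 members, against 50.1% of all genes, and the median was -0.01. By role, 1 of 7 vesicle proteins, 1 of 8 calcium sensors, 1 of 10 SNARE genes, 2 of 10 active zone genes and 0 of 4 endocytosis genes were called by edgeR. DESeq2 also called 0 of these 4, and in neither test did one have an unadjusted p under 0.05.

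Lower after TETA were Sv2c, Unc13c and Doc2b. Sv2c, the SV2 glycoprotein known from basal ganglia (chromosome 13, 95954594 to 96132577, minus strand), had 47.1, 50.4, 51.1, 49.0 and 49.0 CPM in the controls. After TETA it had 33.5, 35.3, 29.7 and 38.4 CPM, each below every control. The level was 30.2% lower, a log2 fold change of -0.52 (SE 0.057, adjusted p = 5.33e-06). Unc13c (Munc13-3, best known from cerebellum; chromosome 9, 73479422 to 73968966, minus strand) had 52.5, 44.1, 44.6, 48.6 and 39.9 CPM in control. It had 34.5, 35.2, 30.2 and 34.5 CPM after TETA. Again no library overlapped, and the fold change was -0.44 on the log2 scale (SE 0.067, adjusted p = 0.000233). Doc2b (chromosome 11, 75768966 to 75796049, minus strand) had 20.01, 17.5, 21.1, 20.2 and 16.5 CPM in control and 13.9, 15.2, 14.4 and 13.7 CPM after TETA. The highest TETA library lay just under the lowest control, with a log2 fold change of -0.40 (SE 0.076, adjusted p = 0.00175).

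Higher after TETA were Unc13b and Snap25. Unc13b (chromosome 4, 43058953 to 43264871, plus strand) had 75.3, 72.6, 75.9, 78.8 and 81.3 CPM in control and 85.7, 84.1, 92.9 and 87.4 CPM after TETA. The TETA libraries all lay above the controls, with a rise of 15.0% or 0.20 on the log2 scale (SE 0.042, adjusted p = 0.00392). Snap25 had 3516, 3577, 3630, 3467 and 3435 CPM in control and 3666, 3682, 3575 and 3868 CPM after TETA. Its groups overlapped, since TETA replicate 3 lay below control replicates 2 and 3. The log2 fold change was 0.08 (SE 0.025), and its adjusted p of 0.0478 rose above 0.05 in 12 of 16 alternative settings, including DESeq2 (0.0551), no count filter (0.0505) and 7 of the 9 fits that left out 1 library (0.0693 to 0.153). Unc13b and Unc13c, paralogs of the same priming factor, thus moved in opposite directions, and their shares of Munc13 CPM per kb were 5.84% ± 0.229 and 9.03% ± 0.854 in control and 6.85% ± 0.281 and 6.81% ± 0.593 after TETA (SD, n = 5 and 4). The third paralog, Unc13a, had a log2 fold change of -0.01.

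**Figure D3:**
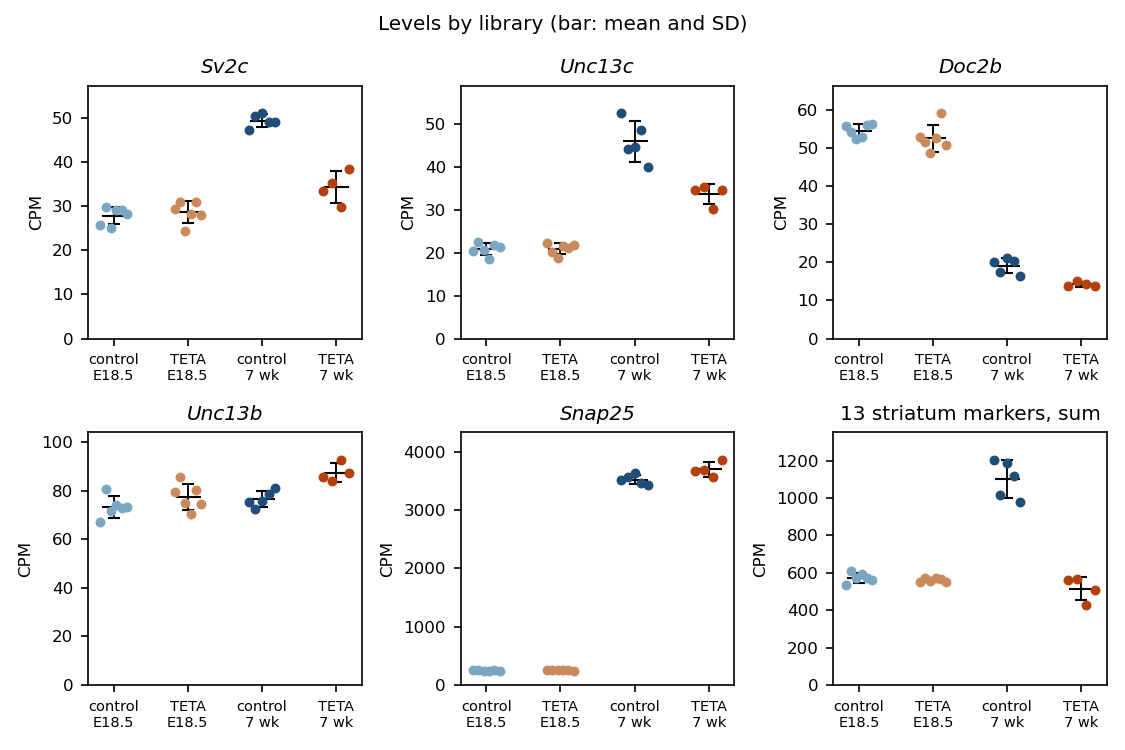
Level of the 5 called genes and the summed level of 13 striatum markers in each library (y axis, CPM from 0), by group, with 1 point per library and bars for mean and SD. At 7 weeks the TETA points lie below all controls for Sv2c, Unc13c, Doc2b and the striatum markers and above them for Unc13b, while for Snap25 3 of 4 lie above all controls and 1 among them.

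Markers of striatum, a region beneath the cortex, differed in the same libraries. All 13 striatal genes listed, such as Drd1, Drd2, Adora2a and Penk, were lower after TETA at 7 weeks (adjusted p under 0.05 in edgeR's test), with a median log2 fold change of -1.34. Their summed level was 976.8 to 1206 CPM in control and 430.2 to 565.0 CPM after TETA. None was at 0 in all TETA libraries, and Isl1, the lowest, was at 0 to 0.225 CPM there. At E18.5 none of the 13 was called by edgeR, 2 had an unadjusted p under 0.05, and the sums were 533.2 to 610.8 CPM in control and 551.0 to 572.5 CPM after TETA. With a striatum marker score as a covariate at 7 weeks, edgeR called 0 members and 0 genes, and 1 member and 700 genes had an unadjusted p under 0.05. The log2 fold change was then -0.28 for Sv2c, 0.20 for Unc13c, 0.015 for Doc2b, -0.07 for Unc13b and 0.16 for Snap25. The SE was larger in that fit, 0.21 against 0.057 for Sv2c. Because the marker level did not overlap between the groups, TETA and the level of these markers cannot be told apart in these libraries.

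Other marker lists were read at 7 weeks too. Summed astrocyte markers were 5929 to 6826 CPM in control and 5387 to 5784 CPM after TETA (3 of 8 called lower). Summed markers overlapped between the groups for cortical excitatory neurons (1 of 8 called higher and 1 lower), inhibitory neurons (2 of 8 lower, Gad2 and Slc32a1), oligodendrocytes (0 of 9 called by edgeR, 3 with an unadjusted p under 0.05), microglia (0 of 7, 1 with an unadjusted p under 0.05) and endothelial cells (1 of 6 higher). In edgeR's test an unadjusted p under 0.05 was reached by 6 of 8 astrocyte markers and 6 of 8 inhibitory neuron markers. The same held for 4 of 6 endothelial, 2 of 8 cortical excitatory and 3 of 13 pan-neuronal markers, against 24% of all genes. Of 8 progenitor markers tested, Hes1 was higher (0.54 on the log2 scale) and Hes5 (-0.44) and Sox2 (-0.21) were lower. Of 4 choroid plexus markers tested, Clic6 was lower (-1.60, adjusted p = 0.00282 in edgeR's test), at 0.976 to 2.32 CPM in control and 0.254 to 0.759 CPM after TETA. Ttr had a log2 fold change of -3.62 that did not pass (adjusted p = 0.0837), with 0.181 to 54.8 CPM in control and 0.355 to 1.26 CPM after TETA. Control replicate 4 stood apart here: its choroid plexus markers summed to 63.4 CPM, against 4.16 to 5.67 CPM in the other 4 controls and 3.35 to 6.07 CPM after TETA. Pan-neuronal markers summed to 6396 to 6657 CPM in control and 6198 to 6466 CPM after TETA, with 1 of 13 called lower. The part of any of these in the members' differences was not tested.

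Next below the threshold came Rims1, with 454.3, 492.9, 447.4, 448.2 and 447.2 CPM in control and 442.0, 424.9, 409.1 and 438.1 CPM after TETA, not overlapping but with a log2 fold change of -0.09 (SE 0.033, adjusted p = 0.114). The other members with an unadjusted p under 0.05 and an adjusted p above 0.05 were Stx1a (0.08), Bsn (0.06), Sv2b (-0.07), Cplx2 (-0.06) and Rab3c (-0.07). Apart from the 5 called genes, fold changes ran from -0.09 for Syn3 to 0.08 for Stx1a, on the log2 scale.

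**Figure D4:**
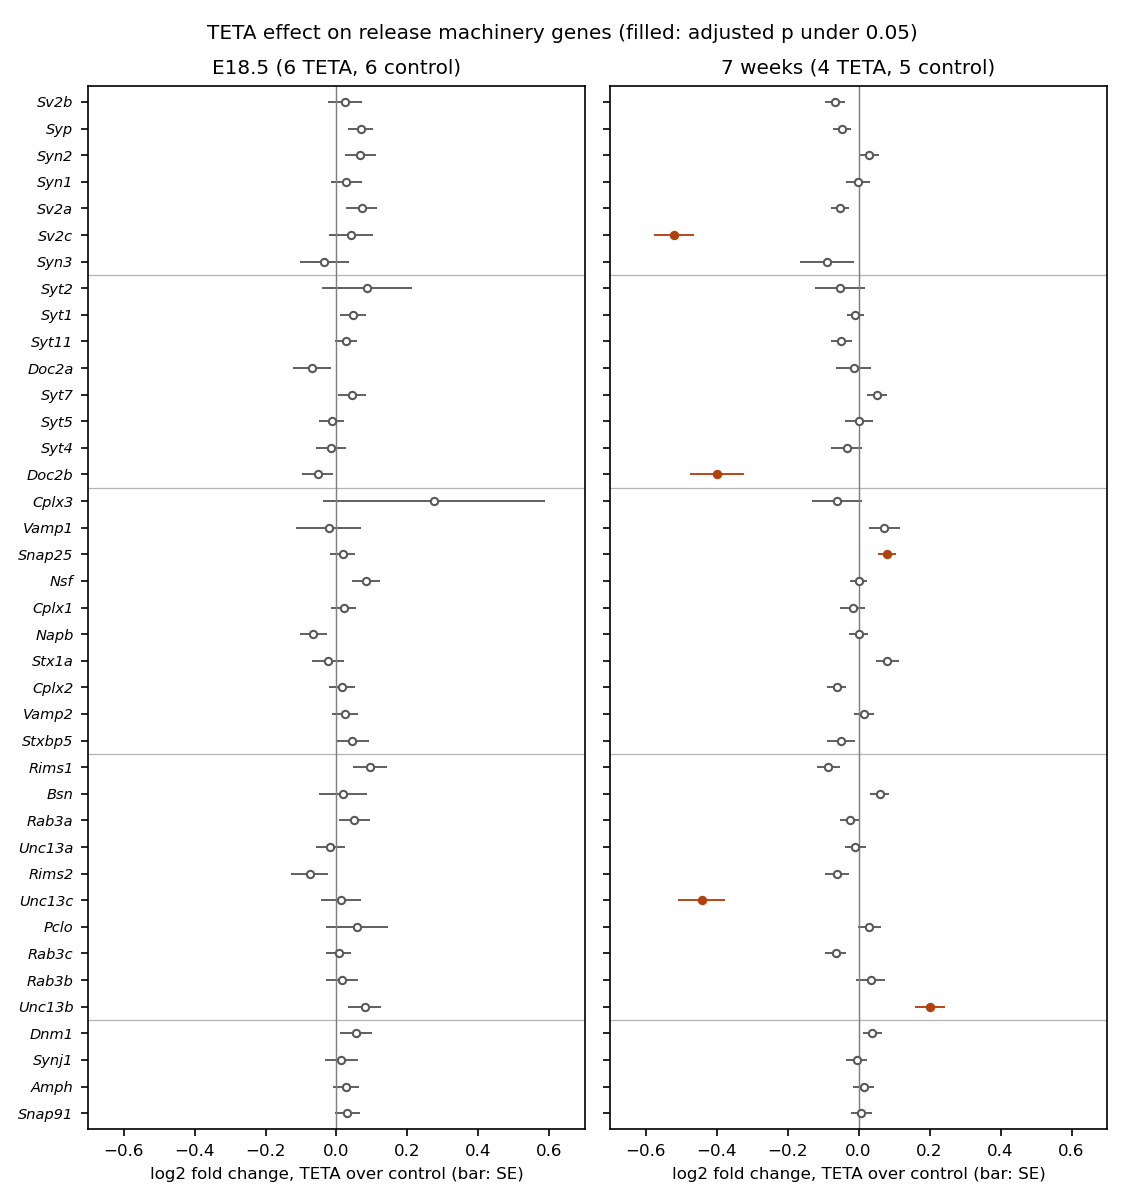
Log2 fold change of TETA over control (x axis) for each of the 39 genes, grouped by role, at E18.5 on the left and at 7 weeks on the right, with bars for the SE and filled points for an adjusted p under 0.05. No point is filled at E18.5, and 5 are filled at 7 weeks, from -0.52 for Sv2c to 0.20 for Unc13b.

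Other genes of vesicle release, a list of 74 of which 71 were tested at 7 weeks, gave 8 higher and 9 lower, or 23.9% called (11.3% higher and 12.7% lower), against 9.96% of all genes (5.67% higher and 4.28% lower). Higher after TETA were Rimbp2, which links RIM to calcium channels, the short RIM isoform gene Rims3, the membrane-bending protein Bin1 and the synaptotagmin Syt17. Rimbp2 was at 235.0 ± 6.15 CPM in control and 280.4 ± 19.7 CPM after TETA (SD, n = 5 and 4), with 0.27 as its log2 fold change (adjusted p = 0.000217). The values were 0.20 for Rims3, 0.14 for Bin1 and 0.19 for Syt17, whose call was lost without TETA replicate 3 (0.13, adjusted p = 0.0679). Lower were Slc32a1, the vesicular GABA transporter, Synpr (synaptoporin, a relative of synaptophysin) and the active zone scaffolds Erc2 and Ppfia4. Slc32a1 was at 115.7 ± 3.65 CPM in control and 92.8 ± 6.51 CPM after TETA, a log2 fold change of -0.31 (adjusted p = 0.000136). Slc32a1 is also 1 of the 8 inhibitory neuron markers, of which Gad2, a GABA-synthesizing enzyme, fell too (-0.16, adjusted p = 0.00255 in edgeR's test) and the other 6 did not pass. Their sums were 1402 to 1482 CPM in control and 1346 to 1421 CPM after TETA, and their part in the value of Slc32a1 was not tested. The values were -0.27 for Synpr and -0.16 for both Erc2 and Ppfia4, the call of Ppfia4 being lost without TETA replicate 3 (-0.14, adjusted p = 0.0588). With the striatum covariate none of these 8 was called (adjusted p = 0.998 each in edgeR's test), and Rimbp2 (-0.14), Syt17 (-0.18) and Ppfia4 (0.014) turned sign. The other 5 kept theirs: Rims3 (0.27) and Erc2 (-0.28) were further from 0 than without it, and Synpr (-0.17), Slc32a1 (-0.055) and Bin1 (0.003) nearer to 0. Of 38 postsynaptic genes, 1 was higher (2.63%) and 5 were lower (13.2%), to be read against the same shares of all genes.

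Whether the effect of TETA differed between ages was tested as an interaction over all 4 groups. Region and sex at E18.5 are not given, so a difference in either cannot be told apart from age here. The interaction was called for 3 of 39 members, all lower at 7 weeks than at E18.5. Over all 14660 genes the share called was 3.1% (1.67% higher and 1.43% lower). Of the 454 genes called 245 were higher, and 413 of 574 with library totals, where the same 3 members were called. An unadjusted p under 0.05 was reached by 6 members (15.4%) and 15.9% of all genes. A difference above 0 was found for 10 members and 47.6% of all genes. Sv2c had a difference of -0.57 (SE 0.089, adjusted p = 0.000215), its E18.5 values being 25.1, 28.7 and 29.8 CPM in control (lowest, median, highest) and 24.5, 28.8 and 31.0 CPM after TETA. Unc13c had a difference of -0.47 (SE 0.092, adjusted p = 0.00286), from 18.5, 20.96 and 22.4 CPM in control and 18.8, 21.3 and 22.3 CPM after TETA at E18.5. In both genes the E18.5 groups covered the same range. Doc2b had a difference of -0.36 (SE 0.085, adjusted p = 0.0146), with 52.3, 54.9 and 56.3 CPM in control and 48.8, 52.0 and 59.2 CPM after TETA at E18.5. These 3 calls held in all 27 alternative settings tried for this test, in which the striatum score was not entered. For Unc13b the difference was 0.11 (adjusted p = 0.463) and for Snap25 0.05 (adjusted p = 0.674), so a different response at the 2 ages was not shown for either. The same 13 striatum markers were all called in this test too, with a median difference of -1.34.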

How the data were processed

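The authors deposited whole-number counts per gene symbol, in separate tables for E18.5 and 7 weeks whose columns are the libraries, per the file headers. The submitters' processing notes name STAR 2.7.1a, featureCounts 2.0.1 and the mm10 build without their settings, so the handling of strand and of reads shared between genes is not given in the sources used here. The libraries were stranded mRNA libraries, per the labels' protocols. In the E18.5 table, 1940 rows at 0 in control replicate 1-1 held multiples of 11 elsewhere and were divided by 11. None was a member. No replicate pair agreed within counting noise (lowest chi-square per gene 2.30).

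Genes were kept by filterByExpr (minimum count 10), which all 39 members passed in every comparison, and tested with edgeR 4.0.16 (TMM, quasi-likelihood F test, Benjamini-Hochberg adjustment over all genes at 0.05) in R 4.3.3. Each age was fitted alone. Controls were compared between ages, and the interaction used all 4 groups. The alternatives were DESeq2 1.42.0, limma 3.58.1 voom with library quality weights, library totals, other filters, undivided counts, summed libraries, a replicate block, a striatum score as covariate, and leaving out each library. The statistics were tested on simulated data. Coordinates are from GENCODE M21 (GRCm38), matched by symbol.

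The members, gene lists and tests were chosen with earlier results of these data known. Values are given for members past 0.05 for TETA at either age, filled to 6 per age by the smallest p, for the 5 highest and 5 lowest between ages, and for those past 0.05 in the interaction. Of the other release genes, the 4 higher and 4 lower with the smallest p past 0.05 are named, or the 3 smallest p where none passed, of which 1 gene is not reported here. Members given only by a fold change complete the account by role. The further marker lists, choroid plexus (6 genes) and blood (5), summed to 4.16 to 63.4 (63.4 in replicate 4 alone, others at most 5.67) and 35.2 to 52.8 CPM in the 7-week controls and to 3.35 to 6.07 and 31.5 to 51.0 CPM after TETA.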

Additional observations from a re-analysis of the deposited data

Results flagged for a closer look

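Of 156 groups of libraries examined (39 genes in 4 groups), 14 held a highest or lowest library far from the others, where chance alone gives about 1 in 20, or 7.8. In E18.5 controls, Nsf was at 158.9 CPM in replicate 3-2, with the others at 146.5 to 150.7. After TETA at E18.5, replicate 1-2 was lowest for Syt11 (322.1 CPM, others 337.9 to 341.9) and for Rab3a (239.5 CPM, others 262.5 to 269.9). Syt5 stood at 145.8 CPM in TETA replicate 2-1, above 127.8 to 134.0, and Snap91 at 309.9 CPM in TETA replicate 3-1, above 287.3 to 293.1.

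In the 7-week controls, replicate 1 was lowest for Vamp1 (147.3 CPM, others 162.8 to 166.2) and for Cplx3 (19.2 CPM, others 23.8 to 24.8). Replicate 3 was highest for Syt1 (2266 CPM, others 2182 to 2201) and lowest for Syt7 (440.1 CPM, others 456.7 to 462.0). Rims1 was at 492.9 CPM in replicate 2, above 447.2 to 454.3, and Rab3c at 564.5 CPM in replicate 5, below 601.5 to 614.2. After TETA at 7 weeks, Unc13c was at 30.2 CPM in replicate 3, below 34.5 to 35.2. Rab3a was at 632.0 CPM in replicate 2, above 592.3 to 598.5, and Pclo at 459.7 CPM in replicate 4, above 445.1 to 447.5.

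The effect of TETA differed between the ages by the interaction test for Sv2c (-0.57 on the log2 scale, 7 weeks minus E18.5), Unc13c (-0.47) and Doc2b (-0.36). The 13 striatum markers also differed in that test, with a median of -1.34, and their part in these values was not tested. Age cannot be told apart there from region or sex, which are not given at E18.5.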

How the results depend on the processing

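At E18.5 the count of 0 genes became 10 with DESeq2, 8 with limma voom weights and 2 with libraries of the same first number summed, and 0 to 7 when 1 library was left out (3 without control replicate 3-2, 7 without TETA replicate 1-2). The members called there stayed at 0 in all 22 settings. At 7 weeks the 1418 genes became 0 with the striatum covariate and 927 to 1392 with 1 library left out (927 without TETA replicate 3), and the 5 members became 0 and 4 to 5. The interaction count of 454 became 290 to 622 with 1 library left out (290 without TETA replicate 3 at 7 weeks). With the striatum covariate these log2 fold changes turned sign: Unc13c 0.20, Doc2b 0.015, Unc13b -0.067, Rimbp2 -0.14, Syt17 -0.18 and Ppfia4 0.014, each with an adjusted p of 0.998. With library totals the difference of Unc13b between ages turned to -0.08. The cause was not tested for any of these. Of 663 values of single genes under alternatives, 632 kept direction and side of the threshold, 21 lost a call with the sign kept, 3 gained one and 7 turned sign, of which the 6 with the covariate also lost their call. Deviations of control and TETA libraries with the same number correlated by -0.275 to 0.284 at E18.5 and by -0.069 to -0.03 at 7 weeks. Libraries with different numbers were not compared in this way, so whether the numbers pair the libraries is not known. With the replicate block edgeR called 0 genes at E18.5 (719 with an unadjusted p under 0.05, and 675 with a block on the first number), 1072 at 7 weeks with 4 members (Snap25 being lost, adjusted p = 0.164), and 472 with the same count of 3 members in the interaction. Depth limited Cplx3 at E18.5, with 5 to 20 counts per library.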
